A study of Bos taurus with 9 samples.

Results

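The genes described here encode the machinery that brings proteins into the endoplasmic reticulum and carries them between membranes in vesicles: the signal recognition particle and SEC61 channel, the COPII and COPI coats, ARF and SAR1 GTPases, TMED and KDEL receptors, TRAPP tethers, SNAREs and Rab proteins. They were chosen by symbol alone, each gene standing on its probe set of highest mean signal: a gene was taken when its probe set carried a single gene symbol that began with SEC, SRP, ARF or RAB and a number, or with COPA, COPB, COPE, COPG, COPZ, TMED, KDELR, SAR1, STX, VAMP or TRAPPC. The rule gave 125 of the 9155 genes named on the array. These genes have 170 probe sets, 88 genes with a single one and 37 with several.

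Proteins with a signal sequence enter the endoplasmic reticulum through the SEC61 channel, leave it in COPII-coated carriers at exit sites, and are sorted in the Golgi, from which COPI carriers bring escaped residents back. Rab and ARF GTPases mark each membrane and recruit tethers, and SNAREs bring about the fusion. A cell that lays down cartilage depends on this route for fibrillar procollagen, whose rigid rods are larger than an ordinary COPII vesicle, and defects of single coat or tether subunits are known to cause skeletal dysplasias.

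RNA came from bovine cells of 3 juvenile calves aged 3 to 6 months, with bone marrow mesenchymal stem cells (MSCs) and articular chondrocytes taken from the same donors. The first group was MSCs in agarose, the gel in which all cells were embedded, collected directly after embedding at day 0. The second was MSCs kept in agarose for 28 days in a chemically defined medium with 10 ng/mL TGF-beta3, a growth factor that drives chondrogenesis, and the third was primary chondrocytes kept in the same way for 28 days. Each group had 3 arrays, 1 per donor, so that n = 3 for every group mean below and values are listed in the order of donors 1, 2 and 3. Chondrocytes at day 0 and MSCs cultured without TGF-beta3 are not analysed here, so that time, the gel, the medium and the factor cannot be told apart in the comparison of MSCs, nor can tissue of origin and the isolation of the cells in the comparison of cell types. In bulk RNA, fewer cells of a type and less RNA per cell cannot be told apart either.

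The cells' labels were checked against markers. All 7 measured cartilage genes, COL2A1, ACAN and COMP among them, were higher in day 28 MSCs than at day 0, and all 7 were higher in chondrocytes than in day 0 MSCs. Between chondrocytes and day 28 MSCs 1 of the 7 was called, as higher in chondrocytes, and the median difference was 0.04. Marrow stroma genes set MSCs apart only in part: in chondrocytes against day 0 MSCs 2 of 6 were lower (CXCL12 and CD44), 0 were higher and the median was -0.04. Their mean log2 signal per array was 7.20 to 7.75 in day 0 MSCs, 5.98 to 6.66 in day 28 MSCs and 6.21 to 6.41 in chondrocytes. By this mean, day 0 MSCs were separate from chondrocytes but day 28 MSCs were not. In day 28 MSCs CXCL12 (-4.07), CD44 (-2.22) and NT5E (-0.81) were lower than at day 0, and NT5E was higher in chondrocytes than in day 28 MSCs (0.92, limma adjusted p = 0.0176). Of 3 adipocyte genes FABP4 was lower (-5.31) and LPL higher (4.54) in day 28 MSCs than at day 0. Of 6 endothelial genes 2 were higher in day 28 MSCs, and 2 in chondrocytes, than in day 0 MSCs, and 0 were lower. Of 4 neuron genes 0 were called in day 28 MSCs and 1 was higher in chondrocytes (2.62) than in day 0 MSCs. Of 6 proliferation genes, 5 were lower in day 28 MSCs than at day 0 and all 6 were higher in chondrocytes than in day 28 MSCs, their mean log2 signal per array running from 7.32 to 7.82 at day 0, from 4.21 to 5.15 in day 28 MSCs and from 8.54 to 8.85 in chondrocytes. Of 7 blood cell genes, 3 were lower and 1 was higher in day 28 MSCs than at day 0, with mean log2 signals of 3.04 to 4.48 at day 0 and 3.23 to 3.36 at day 28, and PTPRC, which defines leukocytes, at 2.49 and 2.15. In chondrocytes the mean signals of the 7 were 3.94 to 4.08, and 1 of them was higher than in day 28 MSCs. Against day 0 MSCs 2 of the 7 were higher and 3 lower in chondrocytes. The mean 3′ minus 5′ difference of 6 control transcripts, which grows as RNA is degraded or copied incompletely, was 1.34 ± 0.23 log2 units (SD) at day 0 and 1.81 ± 0.20 in MSCs and 1.81 ± 0.19 in chondrocytes at day 28. The third-donor arrays of both day 28 groups had lower signals of the bioC hybridisation control, 8.80 on the log2 scale against a mean of 11.66 on the other 7 arrays. The part of stromal, adipocyte, endothelial, neuronal and blood cells, proliferation, RNA quality and these 2 arrays in the differences below was not tested beyond the values given without those arrays.

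Over all 125 genes, the shares that rose and fell from day 0 to day 28 in MSCs were close to those of the array as a whole. Here and below, a gene is called when limma's adjusted p (Benjamini-Hochberg over 24016 probe sets) is under 0.05, differences are on the log2 scale, and errors of differences are standard errors of the fit. From day 0 to day 28, 14 trafficking genes rose (11.2%) and 26 fell (20.8%), where 13.5% of all named genes rose and 21% fell. Both directions together made 32% of these genes, against 34.5% of all named genes. The median difference was -0.12 for the trafficking genes and -0.11 for all genes. By role, 6 of 10 COPII genes rose and 0 fell, whereas 9 of 39 Rab genes and 7 of 23 SNARE genes fell against 1 and 2 that rose. SNARE genes here are all those with STX, VAMP or SEC22 symbols, which include partners of SNAREs such as the STXBP genes. The share of Rab genes that fell, 23.1%, was close to the 21% of all genes, and that of SNARE genes was 30.4%. Every called gene moved the same way in all 3 donors, and its day 0 and day 28 arrays did not overlap except for RAB4A. As the calls were made on these same arrays, this follows largely from them and is no separate support. Without the 2 arrays of low hybridisation controls 10 of these genes rose (8%) and 13 fell (10.4%), where 11.7% of all named genes rose and 18% fell, so that the share of falls among trafficking genes then lay below that of all genes.

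**Figure D1:**
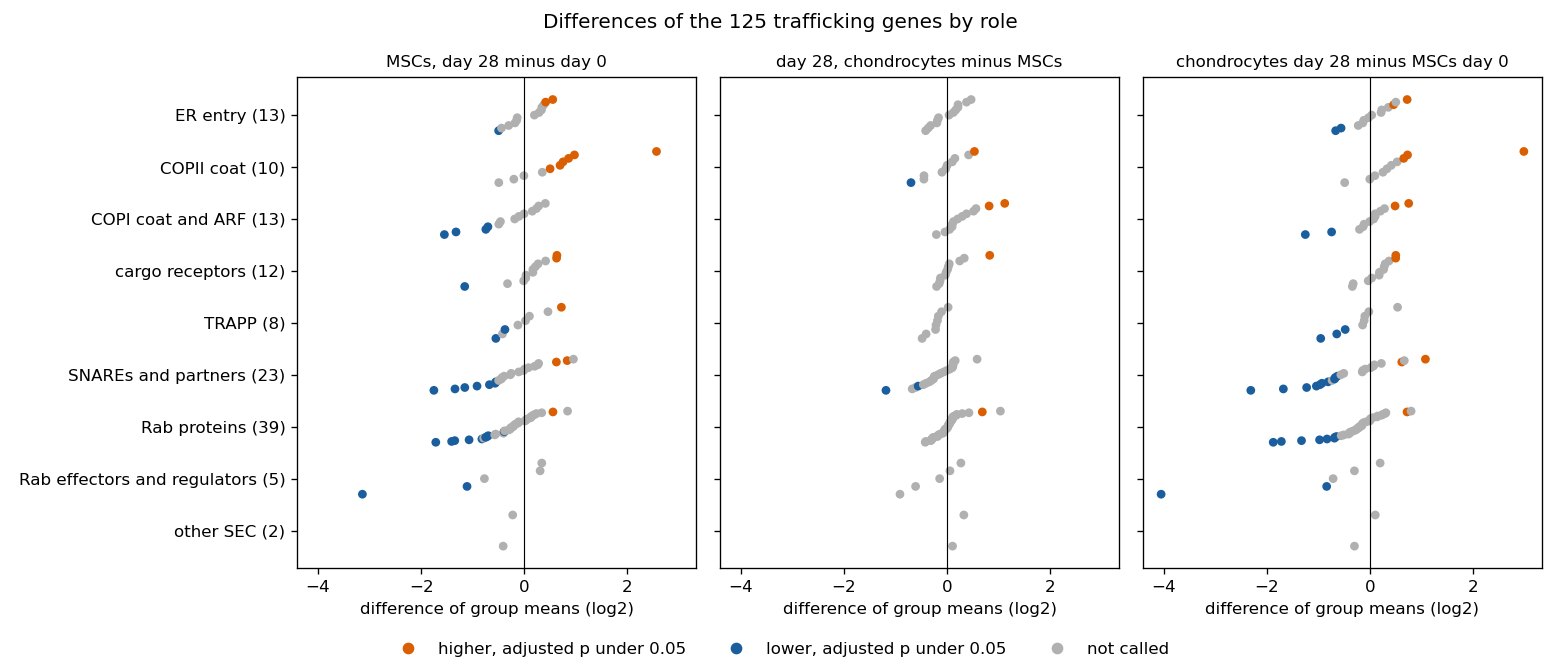
Each point is 1 of the 125 genes, placed by the log2 difference of its group means (horizontal axis) and grouped by role (vertical axis, number of genes in brackets), for each of the 3 comparisons; orange and blue mark genes called higher or lower by limma at an adjusted p under 0.05, and n is 3 arrays per group. In MSCs the COPII row has 6 called genes on the right and none on the left, while the Rab and SNARE rows have 9 and 7 called on the left; few points are coloured in the middle panel, where 8 genes were called.

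Genes of the COPII coat, which shapes carriers at the exit sites of the endoplasmic reticulum, rose more often than the genes of any other role. The 6 that rose were SEC16B, SEC24B, SEC31B, SEC23IP, SAR1B and SEC31A, and the median difference over the 10 was 0.60. SEC16B, a scaffold of the exit sites, had log2 signals of 5.44, 5.56 and 5.67 at day 0, of 7.76, 7.94 and 8.68 in day 28 MSCs and of 8.33, 8.38 and 8.93 in chondrocytes. All 6 day 28 arrays thus lay at least 2 log2 units above every day 0 array. The difference in MSCs was 2.57 ± 0.26, or 5.94-fold (limma adjusted p = 0.000117), which was the largest rise among the 125 genes. SEC24B, a cargo-binding subunit of the inner coat, had signals of 5.91, 5.68 and 6.15 at day 0 and of 6.49, 7.15 and 7.03 at day 28 in MSCs. Its difference was 0.98 ± 0.20 (adjusted p = 0.00514), with no overlap. The chondrocyte arrays, at 6.56, 6.38 and 6.39, lay between both MSC means.

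The remaining COPII rises were between 1.42- and 1.82-fold. SEC31B, a subunit of the outer cage, rose by 0.86 ± 0.17 (limma adjusted p = 0.00413) and its paralog SEC31A by 0.50 ± 0.14 (adjusted p = 0.0203). SEC23IP, which binds the SEC23 subunit and the outer coat, rose by 0.76 ± 0.18 (adjusted p = 0.0100), from 10.14, 10.32 and 10.52 to 10.80, 11.13 and 11.32. The paralogs SAR1A and SAR1B encode the GTPase that starts coat assembly, and their values went opposite ways. SAR1B had 8.04, 8.07 and 7.51 at day 0, then 8.70, 8.58 and 8.43 in day 28 MSCs, a rise of 0.70 ± 0.17 (adjusted p = 0.0131). SAR1A had 9.05, 9.28 and 8.87 at day 0 and 8.66, 8.78 and 8.30 at day 28, a difference of -0.49 that was not called (adjusted p = 0.0698) but was called lower with the donor as a block (adjusted p = 0.0211). SEC23A, the inner coat subunit whose loss is known to cause a craniofacial bone disorder, had a difference of -0.00 (adjusted p = 0.989), and SEC24C (0.35) and SEC13 (-0.20) were not called either. Leaving out day 0 replicate 1 or 2 or day 28 MSC replicate 3 ended the call of SEC31A (difference 0.41 to 0.48), while the other 5 rises kept their calls without any single array. SAR1B was not called with the mean of its 2 probe sets (0.55) or with that of largest SD (0.40), nor when all arrays of donor 1 or 2 were left out. The number of COPII genes that rose was 5 without the low-control arrays, and 4, 2 and 5 when all arrays of donor 1, 2 or 3 were left out.

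**Figure D2:**
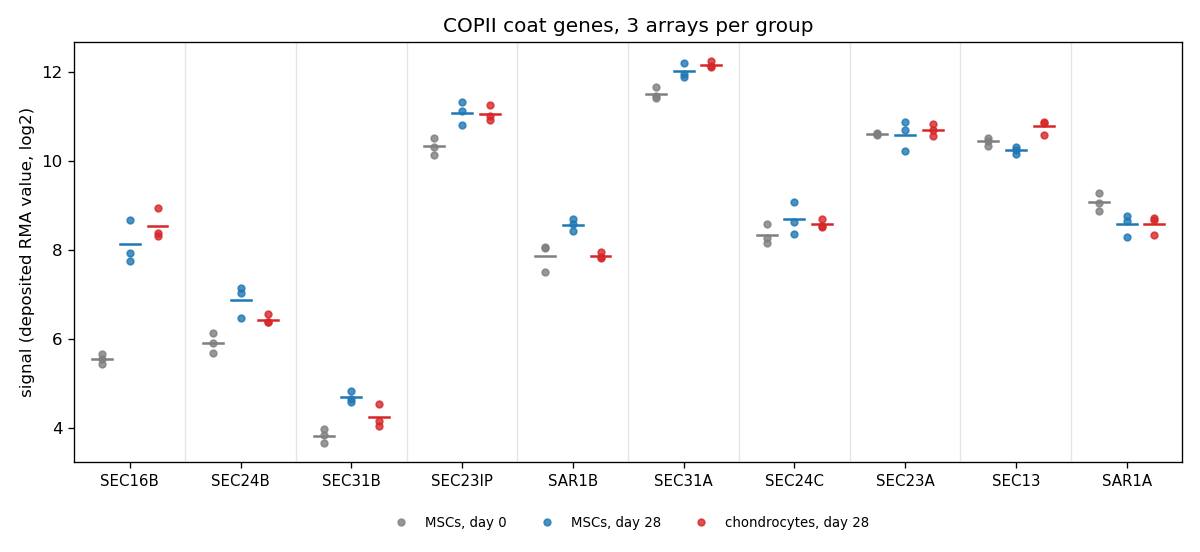
Log2 signal (deposited RMA value, vertical axis) of the 10 COPII genes, with 1 point per array and a bar at each mean of 3 arrays for day 0 MSCs, day 28 MSCs and day 28 chondrocytes. SEC16B is above 7.7 on every day 28 array and below 5.7 on every day 0 array, SAR1B is higher in day 28 MSCs than in both other groups, and SEC23A is level; heights of different genes are not comparable.

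Of 13 genes for entry into the endoplasmic reticulum, SEC63 and SEC61A2 rose and SEC61A1 fell in MSCs, and the median was 0.20. These calls made 23.1% of the 13, against 34.5% of all named genes called in either direction. SEC63, which recruits the chaperone BiP to the channel, rose from 9.43, 9.55 and 9.30 to 9.91, 10.17 and 9.86, by 0.56 ± 0.13 (limma adjusted p = 0.0120). That call was lost with the mean of its probe sets (0.40), with the set of largest SD (0.38) and when all arrays of any 1 donor were left out (0.52 to 0.59). SEC61A1 and SEC61A2 encode alternative pore subunits. SEC61A1 fell by 0.49 ± 0.16 (adjusted p = 0.0387), from 10.90, 11.01 and 10.74 to 10.40, 10.63 and 10.14, and SEC61A2 rose by 0.42 ± 0.13 (adjusted p = 0.0367). Both calls were near the threshold and were lost on leaving out 7 and 8 of the 9 arrays in turn, with differences between -0.62 and -0.37 for SEC61A1 and between 0.35 and 0.51 for SEC61A2. The call of SEC61A2 was kept in 6 of 24 alternative fits, and not with the mean of its probe sets or the set of largest SD. Another of its probe sets was called lower, so that no direction for SEC61A2 stands without the choice of probe set. The small pore subunit SEC61B had a difference of -0.44 (adjusted p = 0.0635, and 0.0347 with the donor block). None of the 5 subunits of the signal recognition particle, which brings nascent chains to the membrane, was called: the differences of SRP9, SRP14, SRP19, SRP68 and SRP72 were -0.13, -0.30, -0.14, 0.29 and 0.34.

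Of the 13 genes of the COPI coat and its ARF GTPases 4 fell in MSCs and 0 rose (median -0.18), and 3 of the 4 were ARF genes. The falls made 30.8% of the 13, where 21% of all named genes fell and 34.5% were called in either direction. Without the low-control arrays 3 fell (23.1%), against 18% of all named genes. ARF proteins are small GTPases that recruit coats to Golgi and endosome membranes. ARF3 had signals of 10.01, 10.11 and 10.05 at day 0, of 8.88, 8.42 and 8.22 in day 28 MSCs and of 8.93, 8.78 and 8.70 in chondrocytes. All 6 day 28 arrays were below all day 0 arrays, and the fall in MSCs was 1.55 ± 0.17 (-1.55 on the log2 scale, 2.92-fold, limma adjusted p = 0.000221). ARF2 took a different course, with 9.80, 10.12 and 10.32 at day 0, 8.56, 8.91 and 8.81 in day 28 MSCs, and 9.59, 10.06 and 9.99 in chondrocytes. The MSC arrays at day 28 stood below both other groups, a difference of -1.32 ± 0.19 from day 0 (adjusted p = 0.000833). ARF5 fell by 0.70 ± 0.24 (adjusted p = 0.0497), a call that was lost on leaving out 8 of the 9 arrays in turn (-0.93 to -0.50 over all 9 cases), and ARF1 (-0.18) and ARF4 (-0.10) were not called.

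COPZ2 was the single subunit of the COPI coat itself that was called. It encodes an alternative zeta subunit, and its signals were 12.11, 12.00 and 12.32 at day 0, 11.37, 11.20 and 11.64 in day 28 MSCs and 12.24, 12.26 and 12.16 in chondrocytes. The fall in MSCs was 0.74 ± 0.15 (limma adjusted p = 0.00524). The paralog COPZ1 had a difference of -0.46 (adjusted p = 0.117), and COPA, COPB1, COPB2, COPE, COPG1 and COPG2 lay between -0.49 and 0.41, none of them called. COPG2 was among the 8 trafficking genes with a mean under the 25th percentile of signal over all probe sets.

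The 12 cargo receptors comprise the TMED (p24) proteins, which cycle between the endoplasmic reticulum and Golgi, and the KDEL receptors, which return resident chaperones. KDELR2 and TMED4 rose (16.7%), TMED3 fell (8.33%) and the median was 0.17, where 13.5% of all named genes rose and 21% fell. KDELR2 had 11.19, 11.32 and 11.15 at day 0 and 11.66, 12.08 and 11.83 in day 28 MSCs, a rise of 0.64 ± 0.14 (limma adjusted p = 0.00853), while KDELR1 (0.42) and KDELR3 (0.04) were not called. TMED4 rose by 0.63 ± 0.14 (adjusted p = 0.00731). Leaving out all arrays of donor 2 or 3 ended the call of KDELR2, and leaving out those of donor 1 or 2 that of TMED4. TMED3 went from 9.49, 9.47 and 9.62 down to 8.49, 8.24 and 8.38, a difference of -1.15 ± 0.17 (adjusted p = 0.000991), and read 8.99, 9.56 and 9.06 in chondrocytes. Thus TMED3, like ARF2 and COPZ2, was lower in day 28 MSCs than in both other groups. TMED9 had a difference of -0.01 (adjusted p = 0.987).

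Of 8 TRAPP genes, whose products tether vesicles and activate RAB1 or RAB11, TRAPPC11 rose and TRAPPC3 and TRAPPC4 fell in MSCs. These calls made 37.5% of the 8, close to the 34.5% of all named genes called in either direction. TRAPPC11, of the complex linked to autophagy, rose by 0.72 ± 0.22 (limma adjusted p = 0.0330), from 8.18, 8.08 and 8.47 to 8.87, 8.67 and 9.36. TRAPPC3, a core subunit, fell by 0.55 ± 0.18 (adjusted p = 0.0453) and TRAPPC4, also of the core, by 0.37 ± 0.12 (adjusted p = 0.0416). With the donor as a block TRAPPC4 was no longer called (adjusted p = 0.0562). Leaving out single arrays ended the calls of TRAPPC11, TRAPPC3 and TRAPPC4 in 4, 7 and 9 of 9 cases, with differences of 0.53 to 0.87, -0.68 to -0.38 and -0.41 to -0.31, and none of the 3 was called without the low-control arrays.

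SNAREs are the coiled-coil proteins that pull membranes together. Of the 23 genes of SNAREs and their partners 7 fell in MSCs, 2 rose and the median was -0.27. The 7 include VAMP8 and STX6, each of which has a second probe set that was called higher, and with the probe set of largest SD for each gene 5 fell and 4 rose. Without the low-control arrays 4 fell (17.4%) and 1 rose (4.35%), where 18% of all named genes fell and 11.7% rose. The share of falls was then close to that of all genes. Without day 0 replicate 2 the falls were 3, and without day 28 MSC replicate 3 they were 4. VAMP5, a SNARE of the plasma membrane first described in muscle, had 7.12, 7.17 and 7.30 at day 0, 5.43, 5.46 and 5.43 in day 28 MSCs and 4.88, 5.12 and 4.65 in chondrocytes. The groups were wholly separate, and the difference in MSCs was -1.75 ± 0.15 (3.37-fold lower, limma adjusted p = 4.87e-05). Beside it, 2 of 5 skeletal muscle markers were higher and 1 was lower in day 28 MSCs than at day 0, and their mean signal per array was 6.90 to 7.05 at day 0 and 7.48 to 7.97 at day 28. STX8, a SNARE of late endosomes, had 11.04, 10.82 and 10.77 at day 0 and 9.86, 9.59 and 9.72 at day 28 in MSCs, with 9.90, 9.81 and 9.80 in chondrocytes. Its fall was 1.15 ± 0.13 (adjusted p = 0.000266), and STX10, a SNARE of the trans-Golgi and endosomes, fell by 1.34 ± 0.30 (adjusted p = 0.00832) from 6.56, 6.58 and 6.00 to 5.32, 5.38 and 4.42.

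The other SNARE calls were smaller. VAMP8, STX17, STX12 and STX6, which act in endosome, autophagosome or Golgi fusion, had differences of -0.91 ± 0.25, -0.67 ± 0.20, -0.56 ± 0.15 and -0.55 ± 0.16 (limma adjusted p = 0.0204, 0.0310, 0.0199 and 0.0269). STX2, a syntaxin of the plasma membrane, rose by 0.63 ± 0.18 (adjusted p = 0.0250). STXBP5, or tomosyn, which occupies syntaxins and holds back fusion, rose by 0.84 ± 0.19 (adjusted p = 0.00987), from 6.03, 5.41 and 5.71 to 6.58, 6.79 and 6.29. STX5, the syntaxin of the route from the endoplasmic reticulum to the Golgi, was not called (-0.27, adjusted p = 0.239), nor was SEC22B of the same complex (0.28, adjusted p = 0.208). Leaving out 1 array ended the calls of VAMP8 (day 0 replicate 2, -0.72; day 28 MSC replicate 3, -0.69), and in 3 or 4 of 9 cases those of STX17 (-0.83 to -0.53), STX12 (-0.70 to -0.49), STX6 (-0.70 to -0.47) and STX2 (0.46 to 0.75). VAMP5, STX8, STX10 and STXBP5 kept their calls without any single array. With the donor as a block VAMP3, of recycling endosomes, was also called lower (-0.44, adjusted p = 0.0373, against 0.0826 without it) and STXBP6, a protein that binds SNARE complexes, higher (0.96, adjusted p = 0.0202, against 0.0660).

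Among the 39 Rab genes, 9 fell and 1 rose in MSCs, with a median of -0.21. The largest falls were those of RAB29, RAB4A, RAB22A and RAB40B. RAB29, a Rab of the trans-Golgi and lysosomes, had 5.04, 4.70 and 4.07 at day 0, 2.98, 2.93 and 2.76 in day 28 MSCs and 2.93, 2.52 and 2.73 in chondrocytes, a fall in MSCs of 1.71 ± 0.24 (limma adjusted p = 0.000666). Its day 28 signals lay below the median of each array, and signals this low cannot be told from background. RAB22A, of early and recycling endosomes, had 8.56, 8.38 and 8.43 at day 0, 7.46, 7.12 and 6.76 in day 28 MSCs and 7.03, 7.41 and 6.95 in chondrocytes. Its fall was 1.35 ± 0.20 (adjusted p = 0.000983), and all day 28 arrays were below all day 0 arrays. RAB4A, which directs fast recycling from early endosomes, had 10.33, 9.50 and 10.35 at day 0 and 9.55, 7.997 and 8.42 in day 28 MSCs. The day 28 array of donor 1 overlapped the day 0 range, and the difference was -1.41 ± 0.38 (adjusted p = 0.0199). RAB40B, which links Rab signalling to ubiquitin ligases, fell by 1.07 ± 0.29 (adjusted p = 0.0218) at a mean signal at percentile 23.2 of all probe sets.

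The 3 RAB5 paralogs, which serve fusion of early endosomes, did not move alike. RAB5A, the single Rab gene that rose, had 10.75, 10.69 and 10.64 at day 0 and 11.13, 11.38 and 11.25 in day 28 MSCs, a rise of 0.56 ± 0.12 (limma adjusted p = 0.00733). RAB5C fell by 0.75 ± 0.21 (adjusted p = 0.0255), from 9.49, 9.64 and 9.67 to 9.07, 9.07 and 8.42, and RAB5B had a difference of -0.19 (adjusted p = 0.449). RAB27A, which docks secretory lysosomes and exosome-bearing endosomes, fell by 0.82 ± 0.22 (adjusted p = 0.0210), while its paralog RAB27B was not called (-0.13, adjusted p = 0.717). RAB7A, of late endosomes, fell by 0.72 ± 0.21 (adjusted p = 0.0282) and RAB31, of the trans-Golgi, by 0.70 ± 0.23 (adjusted p = 0.0477). RAB11A, of recycling endosomes, fell by 0.39 ± 0.13 (adjusted p = 0.04995, just under the threshold), and RAB11B had a difference of 0.05 (adjusted p = 0.861). With the donor as a block RAB31 and RAB11A were no longer called (adjusted p = 0.05004 and 0.0623). RAB1A, of the first step out of the endoplasmic reticulum, was not called (-0.30, adjusted p = 0.0992), nor was any of the 4 RAB3 paralogs, the Rabs of regulated secretion, of which RAB3A had the largest difference (0.84, adjusted p = 0.0692).

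Single arrays decided several of the Rab calls. Leaving out any 1 of the 9 arrays ended that of RAB11A (-0.44 to -0.28), and 7 of the 9 ended that of RAB31 (-0.91 to -0.51). The calls of RAB4A (-1.85 to -1.08) and RAB40B (-1.26 to -0.93) were lost without day 0 replicate 1 or 3 or day 28 MSC replicate 2 or 3. Those of RAB27A (-1.03 to -0.61) and RAB5C (-0.86 to -0.53) were lost without day 0 replicate 2 or 3 or day 28 MSC replicate 3, and that of RAB7A (-0.84 to -0.49) without day 0 replicate 1 or 2 or day 28 MSC replicate 3. RAB29, RAB22A and RAB5A kept theirs. Without the low-control arrays 3 Rab genes fell (7.69%) and 1 rose (2.56%), where 18% of all named genes fell and 11.7% rose.

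RAB3IP, or Rabin8, the exchange factor that activates RAB8 on the way to the plasma membrane and cilium, had the largest fall of the 125 genes. Its signals were 7.98, 7.31 and 7.95 at day 0, 4.79, 3.94 and 5.09 in day 28 MSCs and 3.67, 3.41 and 3.995 in chondrocytes. Every day 28 array was more than 2 log2 units below every day 0 array, and the difference in MSCs was -3.14 ± 0.31 (8.81-fold lower, limma adjusted p = 0.000117). Its signals in all chondrocytes and in day 28 MSCs of donors 1 and 2 lay below the median of each array. Signals this low cannot be told from background, so that the sizes of its differences are uncertain. The Rabs it acts on, RAB8A and RAB8B, were not called (-0.26 and -0.21). RAB3GAP2, the regulatory subunit of a complex that acts on RAB3 and RAB18, fell by 1.11 ± 0.14 (adjusted p = 0.000454), from 4.31, 4.56 and 4.08 to 3.15, 3.23 and 3.24, whereas the catalytic partner RAB3GAP1 had a difference of 0.34 (adjusted p = 0.148). The RAB3GAP2 signals of both MSC groups lay below the median of each array, and such low signals cannot be told from background. RAB11FIP5, an effector of RAB11, had a difference of -0.77 that was called with the donor block (adjusted p = 0.0376) but not without it (adjusted p = 0.103). In MSCs, RAB3IP and RAB3GAP2 kept their calls in every alternative fit in which they were tested.

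**Figure D3:**
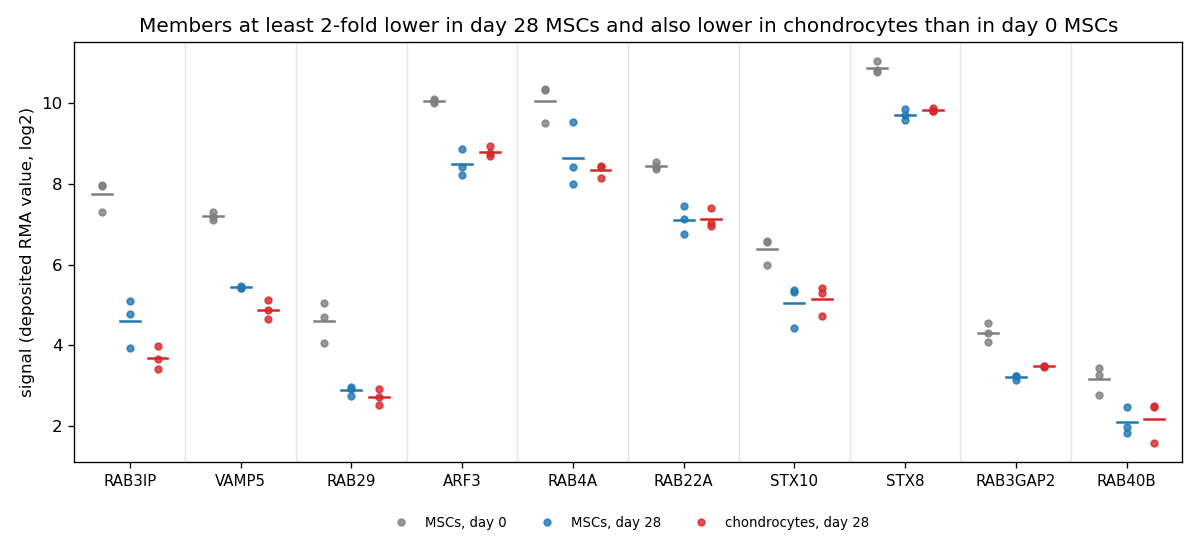
Log2 signal (deposited RMA value, vertical axis) of the 10 genes, of the 12 that fell at least 2-fold in MSCs, that were also called lower in chondrocytes than in day 0 MSCs; 1 point per array, bars at the means of 3 arrays. The day 28 points of both cell types lie below all day 0 points for every gene except RAB4A, where 1 day 28 MSC array at 9.55 reaches above the lowest day 0 array at 9.50.

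Between chondrocytes and MSCs at day 28, both after the same culture, few trafficking genes differed: 5 were higher in chondrocytes (4%) and 3 lower (2.4%), where 8.35% of all named genes were higher and 4.81% lower, or 6.4% against 13.2% in both directions. The 5 were ARF2, TMED3, COPZ2, RAB7B and SEC13, and the 3 were VAMP7, SAR1B and VAMP5. Of the 5, ARF2 differed most, at 1.12 ± 0.19 above day 28 MSCs (limma adjusted p = 0.00607), followed by TMED3 at 0.83 ± 0.17 (adjusted p = 0.0154) and COPZ2 at 0.82 ± 0.15 (adjusted p = 0.00946). In these 3 genes the chondrocyte signals were close to those of day 0 MSCs, with differences of -0.20, -0.32 and 0.08 from them, none called. Both of these comparisons use the day 28 MSC arrays, so that the fall with time and the gap between cell types are not independent of each other.

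SEC13, which serves in the outer COPII cage and in the nuclear pore, had 10.25, 10.32 and 10.16 in day 28 MSCs and 10.86, 10.88 and 10.59 in chondrocytes, a difference of 0.53 ± 0.13 (limma adjusted p = 0.0341). RAB7B, a Rab of transport from endosomes to the trans-Golgi, was 0.69 ± 0.17 higher in chondrocytes (adjusted p = 0.0350), with 7.47, 7.41 and 7.45 there and 6.59, 7.02 and 6.67 in MSCs. SAR1B was 0.70 ± 0.17 lower (-0.70 on the log2 scale, adjusted p = 0.0322), at 7.95, 7.85 and 7.82, the level of day 0 MSCs. VAMP7, a SNARE of lysosomes and late secretory vesicles, had 7.76, 7.77 and 7.94 in day 28 MSCs and 6.14, 6.45 and 7.33 in chondrocytes, so that the groups did not overlap but the chondrocytes spread widely. Its difference was -1.18 ± 0.29 (adjusted p = 0.0303), and that of VAMP5 was -0.56 ± 0.15 (adjusted p = 0.0411, and 0.0523 with the donor block). The remaining 117 genes were not called, among them SEC16B (0.42, adjusted p = 0.372), SEC31A (0.15), KDELR2 (-0.14), COPA (0.21), SEC61A1 (0.47, adjusted p = 0.0943) and RAB3IP (-0.91, adjusted p = 0.103, and 0.0119 with the donor block). RAB15 (1.04) and SEC22C (-0.68) were likewise called with the block (adjusted p = 0.0459 and 0.0300, against 0.0672 and 0.0666).

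These calls rested on few arrays. ARF2 and COPZ2 kept theirs without any single array (1.02 to 1.27 and 0.72 to 0.94). TMED3 lost it without day 28 MSC replicate 2 (0.76, limma adjusted p = 0.0534), and RAB7B (0.60 to 0.81), SEC13 (0.48 to 0.63), SAR1B (-0.77 to -0.63), VAMP7 (-1.53 to -0.93) and VAMP5 (-0.68 to -0.44) lost theirs in 6, 6, 5, 5 and 8 of 9 cases. Without the low-control arrays 2 genes were higher and 2 lower. Proliferation markers moved with this comparison by a median of 4.84 log2 units, and their part in these differences was not tested.

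**Figure D4:**
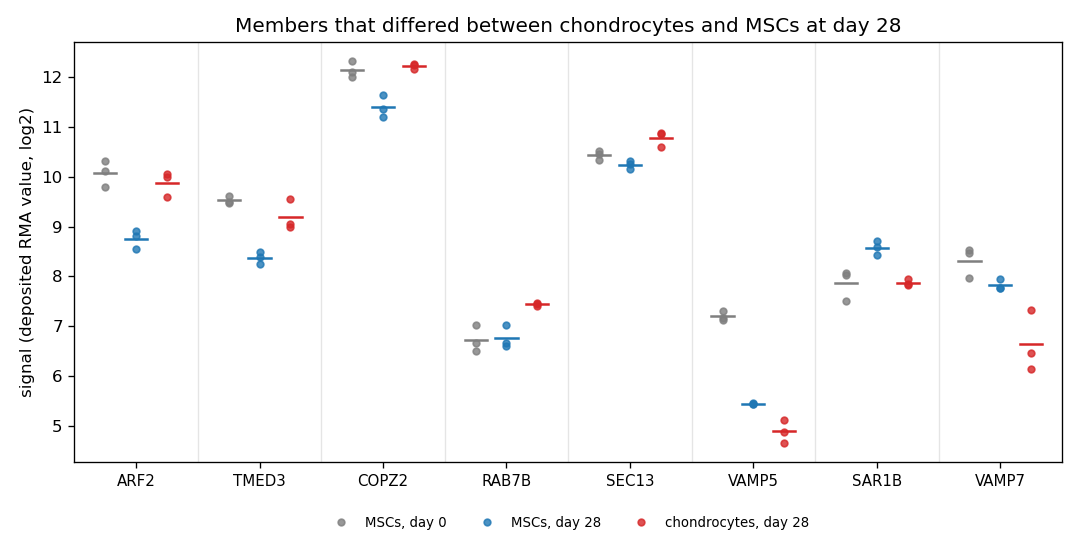
Log2 signal (deposited RMA value, vertical axis) of the 8 genes called between chondrocytes and MSCs at day 28; 1 point per array, bars at the means of 3 arrays. ARF2, TMED3 and COPZ2 dip in day 28 MSCs alone, SAR1B peaks there, and VAMP5 steps down from day 0 MSCs to day 28 MSCs to chondrocytes.

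Set against day 0 MSCs, chondrocytes had 12 trafficking genes higher (9.6%) and 27 lower (21.6%), where 15.1% of all named genes were higher and 20.9% lower, or 31.2% against 36% in both directions. These values share arrays with both comparisons above. SEC16B was 2.99 ± 0.26 higher (7.94-fold, limma adjusted p = 4.85e-05), and of the COPII genes SEC23IP (0.73) and SEC31A (0.66) were also higher, whereas SEC24B (0.53), SEC31B (0.42) and SAR1B (-0.00) were not called. RAB3IP had a difference of -4.05 ± 0.31 (16.6-fold lower, adjusted p = 2.78e-05), VAMP5 one of -2.31 ± 0.15 (4.96-fold lower, adjusted p = 8.58e-06) and VAMP7 one of -1.68 ± 0.29 (adjusted p = 0.00215). As the chondrocyte signals of RAB3IP lay below the median of each array, the size of its difference is uncertain.

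Some genes were called against day 0 MSCs in chondrocytes but not in day 28 MSCs. Higher were COPG1 (0.75 ± 0.16) and COPA (0.49 ± 0.13) of the COPI coat, the signal peptidase subunit SEC11C (0.72 ± 0.20), SRP72 (0.46 ± 0.13), RAB7B (0.72 ± 0.17) and STXBP6 (1.08 ± 0.35). COPG1, for one, read 10.03, 10.02 and 10.25 in day 0 MSCs, 10.53, 10.35 and 10.13 in day 28 MSCs and 10.78, 11.08 and 10.70 in chondrocytes. Lower were VAMP7, SRP14 (-0.66 ± 0.14), SRP19 (-0.56 ± 0.17), SEC22C (-0.68 ± 0.20), STX7 (-0.63 ± 0.15), TRAPPC9 (-0.64 ± 0.15) and RAB3B (-0.68 ± 0.18). None of these 13 except RAB7B and VAMP7 differed from day 28 MSCs by the test, so that a difference between both cell types was not shown for the others. Single left-out arrays ended the calls of COPA (0.42 to 0.59), SEC11C (0.59 to 0.87), SRP72 (0.40 to 0.52), STXBP6 (0.90 to 1.34), SRP19 (-0.64 to -0.49), SEC22C (-0.78 to -0.54) and RAB3B (-0.85 to -0.47), and those of KDELR2 (0.45 to 0.55), TMED4 (0.44 to 0.61) and STX2 (0.53 to 0.69), which were higher here as in day 28 MSCs.

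With the donor as a block 8 further genes were called against day 0 MSCs, among them SAR1A (-0.49, adjusted p = 0.0214), RAB27B (-0.56, adjusted p = 0.0293) and VAMP3 (-0.51, adjusted p = 0.0220) as lower and TRAPPC11 (0.54, adjusted p = 0.0159) as higher.

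Of the 23 SNARE genes 10 were lower (43.5%) and 2 higher (8.7%) in this contrast. Of all named genes 20.9% were lower and 15.1% higher. The median was -0.56 for the SNARE genes against -0.12 for all genes. With arrays scaled on ribosomal protein genes 1235 named genes were lower instead of 1915, and SEC22C and VAMP8 lost their calls. The 10 include VAMP8 and STX6, which lost this call with the mean of their probe sets and with the set of largest SD. STX12 (-0.97 ± 0.15), STX17 (-0.93 ± 0.20), STX8 (-1.04 ± 0.13) and STX10 (-1.23 ± 0.30) were lower by about as much as VAMP8 (-0.81 ± 0.25) or more, all called by limma, and all but VAMP8 without any single array. Of 8 TRAPP genes 3 were lower (37.5%), TRAPPC3 (-0.95 ± 0.18), TRAPPC9 and TRAPPC4 (-0.48 ± 0.12). TRAPPC9 and TRAPPC4 lost their calls with scaling on ribosomal protein genes.

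Pathway genes outside the symbol rule were listed by function, and 69 of 87 listed were named on the array. In MSCs 10 of them rose and 11 fell, together 30.4% against 34.5% of all named genes, with a median of -0.04. With all 9 arrays the list as a whole thus moved about as often as other genes, and the values that follow describe its single genes. At the exit sites, MIA3 (TANGO1), the receptor that loads procollagen into COPII carriers, fell by 1.41 ± 0.22 (limma adjusted p = 0.00139), from 10.93, 11.14 and 11.20 to 9.34, 9.51 and 10.17, with 9.89, 10.02 and 10.31 in chondrocytes. Its binding partner MIA2 rose by 1.04 ± 0.15 (adjusted p = 0.000797), and MCFD2, the partner of the receptor LMAN1 in export of glycoproteins, rose by 1.07. CREB3L2, a membrane-bound transcription factor known to act on secretory genes in cartilage, rose by 1.87 (adjusted p = 0.000296). SSR3 (1.22) and SRPRA (0.65), of the translocon and the receptor of the signal recognition particle, rose, as did the Golgi tethers GOLGA2 (0.96), GOLGA5 (0.45) and COG2 (1.02), the SNARE BET1L (0.87) and the clathrin adaptor subunit AP1G1 (0.50). The others that fell were ERGIC1 (-0.54), BCAP31 (-0.76), VTI1A (-1.25), VTI1B (-0.56), the exocyst subunits EXOC1 (-0.66), EXOC5 (-0.70) and EXOC6 (-1.91), and the clathrin adaptor subunits AP1M1 (-0.58), AP2M1 (-0.77) and AP2S1 (-1.54). Without the 2 low-control arrays 6 of the 69 rose (8.7%) and 7 fell (10.1%), where 11.7% of all named genes rose and 18% fell. SRPRA, GOLGA5, BET1L, ERGIC1, BCAP31 and VTI1B were among the genes that lost their calls then.

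Between chondrocytes and day 28 MSCs 4 of these 69 were called (5.8% against 13.2% of all named genes). AP1B1, a subunit of the adaptor of the trans-Golgi, was higher in chondrocytes by 1.20 and TFG, a scaffold of exit sites, by 0.71, while the exocyst subunits EXOC3 and EXOC6 were lower (-0.71 and -0.79). Against day 0 MSCs 13 were higher and 10 lower in chondrocytes, with CREB3L2 (1.76), MIA2 (1.17) and MIA3 (-1.02) called in the same direction as in day 28 MSCs.

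Where a gene had several probe sets, they did not always move together. For the 37 genes with more than 1 set there were 45 other sets. In the comparison of MSCs, 7 of these were called in the same direction as the set of highest mean and 3 in the opposite direction, 7 were uncalled where it was called, 4 were called where it was not and 24 were uncalled on both. The second sets of COPZ2 (-1.42), RAB22A (-1.15), STX10 (-0.91) and SEC23IP (0.69) went with the first. For VAMP8 the brighter set read 9.34, 9.86 and 9.23 at day 0 and 8.73, 8.84 and 8.12 at day 28 in MSCs, and the dimmer set 4.52, 3.95 and 4.37 and then 5.34, 5.41 and 6.33. The differences were -0.91 and 1.41, both called and of opposite sign, so that no single direction for VAMP8 stands without the choice of probe set. STX6 (-0.55 on the brighter set, 1.19 on the dimmer) and SEC61A2 (0.42 on the brightest, -1.59 on the fourth of 5) had the same conflict. RAB3IP and SEC16B have 1 probe set each.

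**Figure D5:**
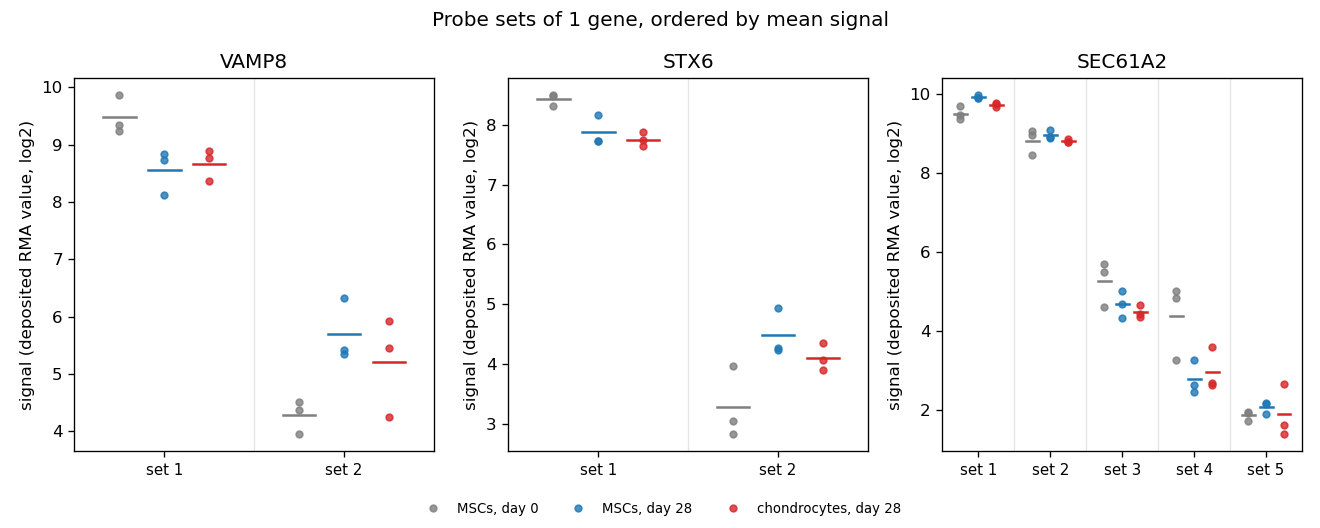
Log2 signal (deposited RMA value, vertical axis) of each probe set of VAMP8, STX6 and SEC61A2, numbered by falling mean signal; 1 point per array, bars at the means of 3 arrays, and each panel has its own scale. From day 0 to day 28 in MSCs the first set of VAMP8 and of STX6 goes down while the second goes up, and sets 1 and 4 of SEC61A2 move apart.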

How the data were processed

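RNA of 9 samples, 3 per group, was measured on single-colour bovine arrays, each sample on its own array. RNA, per the labels' protocols, was extracted with trizol and copied from the poly(A) tail with linear amplification, which favours 3′ ends. Values deposited by the authors were log2 by their range and came from RMA, per the submitters' processing notes (version not given in the sources used here). RMA's quantile normalization hides shifts shared by most transcripts, and the values carry no detection call, so that low signals cannot be told from background. The number of arrays limits the precision.

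Of 24128 probe sets 112 were controls, and the other 24016 were tested with limma 3.58.1 in R 4.3.3 (lmFit and eBayes, 1 model of 3 groups, Benjamini-Hochberg, call at 0.05). Genes were named through the platform annotation where a probe set had a single symbol. All 125 symbols matched current RefSeq symbols, and RAB9A and RAB33A, found only on probe sets with several symbols, were left out. Named per comparison were the 6 largest rises and falls among called genes, the gene of smallest p per role, 20 fixed genes as far as the array names them, and paralogs or short lists with their values. The members and lists were chosen with earlier results of these data known. Scripts were tested on simulated data.

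The same donors gave all groups, so that replicate numbers pair the samples: deviations from group means correlated between 0.108 and 0.412 in the 9 same-donor pairs and between -0.303 and 0.152 in the 18 others. The main fit has no block, and a fit with the donor as a block was an alternative. Other alternatives were median, ribosomal protein gene and cyclic loess scaling, a filter at the 25th percentile of signal, other choices of probe set, robust variance, array weights, 2 groups alone, and leaving out arrays, donors or the 2 arrays of low controls.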

Additional observations from a re-analysis of the deposited data

How the results depend on the processing

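Of 24 alternatives, the calls of SEC16B and SEC31B (higher) and of ARF2, ARF3, RAB22A, RAB29, RAB3GAP2, RAB3IP, STX8, TMED3 and VAMP5 (lower) in day 28 against day 0 MSCs were kept in all that tested them, 2 of 14 rises and 9 of 26 falls; 0 of the 8 calls between chondrocytes and day 28 MSCs were. In MSCs the 26 falls became 17 with the 2 groups fitted alone and 13 without the arrays of low hybridisation controls; leaving out an array or donor gave 12 to 23 falls (12 without day 28 MSC replicate 3, 13 without day 0 replicate 2, 17 without day 0 replicate 1) and 3 to 14 rises. In chondrocytes against day 28 MSCs the 5 higher became 9 with scaling on ribosomal protein genes, 2 without the low-control arrays and 8 with those arrays as a covariate, and the 3 lower became 1 with ribosomal scaling and 1 with 2 groups alone; leaving out arrays or donors gave 0 to 5 higher and 0 to 3 lower. In chondrocytes against day 0 MSCs the 12 higher became 6 with median scaling, 26 with ribosomal scaling and 7 without the low-control arrays, and the 27 lower became 16 with ribosomal scaling; leaving out arrays or donors gave 2 to 13 higher and 10 to 29 lower. Ribosomal scaling shifted the median difference over every probe set by 0.17 and 0.20 in the comparisons of chondrocytes with day 28 and day 0 MSCs (1095 genes higher and 243 lower, and 1877 and 1235, against 764 and 440, and 1384 and 1915), and median scaling moved the last by -0.12 (1174 and 2531). With the donor as a replicate block 15 members rose and 27 fell in MSCs, 6 were higher and 4 lower in chondrocytes against day 28 MSCs, and 14 and 33 against day 0; the calls of single genes that it changed are given with the results, except RAB11FIP5 (-0.71), STX18 (-0.56), STX4 (-0.73) and STXBP2 (0.67), which with the block were called against day 0 in chondrocytes (adjusted p = 0.0491, 0.0490, 0.0445 and 0.0343). VAMP8 reversed with the choice of probe set: in MSCs its difference was 0.25 with the mean of its sets (limma adjusted p = 0.359) and 1.41 with the set of largest SD (adjusted p = 0.0309), and in chondrocytes against day 0 MSCs 0.058 (adjusted p = 0.847) and 0.93 (adjusted p = 0.129). The cause of the other shifts was not tested. Groups of 3 arrays limit what these fits can call.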
